A study of Rattus norvegicus with 14 samples.

Results

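The comparison set indomethacin against NS-398 at the same dose, 100 µM, in IEC-6 cells, a non-transformed epithelial line from rat small intestine. It used the 2 indomethacin arrays and the 2 NS-398 arrays whose labels carry the suffix b, 4 of the 14 arrays of the series. All probe sets other than controls entered if their signal reached 100 on at least 2 of these 4 arrays, which kept 16154 of 31099 probe sets and 9363 named genes. The second-highest signal was 100.01 in the lowest probe set kept and 99.948 in the highest one left out. Cells of every group were kept for 72 h, with 100 µM indomethacin, 100 µM NS-398, 1 µM SC-560 or the solvent DMSO alone. The suffix b was carried by 8 arrays, 2 for each of these 4 groups, and not by the other 6, none of which held indomethacin. The sources used here do not say what the suffix stands for. The submitters' design text says that cultures were pooled and that each biological sample was put on 4 chips, and the sources used here do not say whether arrays 1b and 2b of a drug share a pool. The p-values here measure only how much arrays differ within a group, a spread that may be technical.

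Indomethacin blocks both cyclooxygenases, the enzymes that start prostaglandin synthesis from arachidonic acid, and NS-398 prefers cyclooxygenase-2. Prostaglandins help to keep the intestinal epithelium intact, and non-steroidal anti-inflammatory drugs can injure it. At high doses such drugs are also known to act on cells apart from cyclooxygenase, among others on calcium handling, on protein folding in the endoplasmic reticulum and on transcription factors. The submitters describe both drugs as inhibiting the migration of these cells, so the comparison asks where the RNA of cells under the 2 drugs differs although this effect is shared.

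Of the 16154 probe sets, 1690 (10.5%) passed an adjusted p of 0.05 in limma and are called here, 733 (4.54%) higher and 957 (5.92%) lower with indomethacin. Of the 9363 genes, each read from 1 probe set, 1058 (11.3%) were called, 427 (4.56%) higher and 631 (6.74%) lower. Among the called genes, 78 were higher and 184 were lower by at least 1.5-fold on the scale of signal + 50. Differences below are log2(signal + 50) with indomethacin minus the same with NS-398, with the standard error after ±, and signals are linear values in the order of arrays 1b and 2b. The median difference over all genes was -0.0047. Lists whose called members were mostly higher with indomethacin than with NS-398 included ATF4 and stress response genes (16 of 29 called higher, 4 lower). Protein folding in the endoplasmic reticulum was another (11 of 23 higher, none lower). Lists whose called members were mostly lower included immediate early genes (15 of 24 lower, 1 higher) and glycolysis and hypoxia (16 of 28 lower, none higher). The list of NF-kB and chemokine genes was another (10 of 21 lower, 2 higher).

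Arrays of one drug were closer to each other than to the other drug. The standard deviation of the log2 difference over the tested probe sets was 0.216 between the indomethacin arrays and 0.227 between the NS-398 arrays, and 0.305 to 0.308 between arrays of different drugs. The median signal was 109 and 111 with indomethacin, against 106 and 107 with NS-398, and the ratio of 3' to 5' actin probe sets, a sign of RNA quality, was 1.25 and 1.23 against 1.30 and 1.22. Both arrays of one drug lay above both of the other for 8596 probe sets (53.2%), among them all 1690 called ones. The number of calls fell to 707 without the indomethacin 1b array, 764 without indomethacin 2b, 1041 without NS-398 1b and 964 without NS-398 2b, and 445 probe sets (143 higher, 302 lower) were called with all arrays and without any single one. Array signals of bulk RNA do not tell less RNA per cell from fewer cells of a kind.

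**Figure D1:**
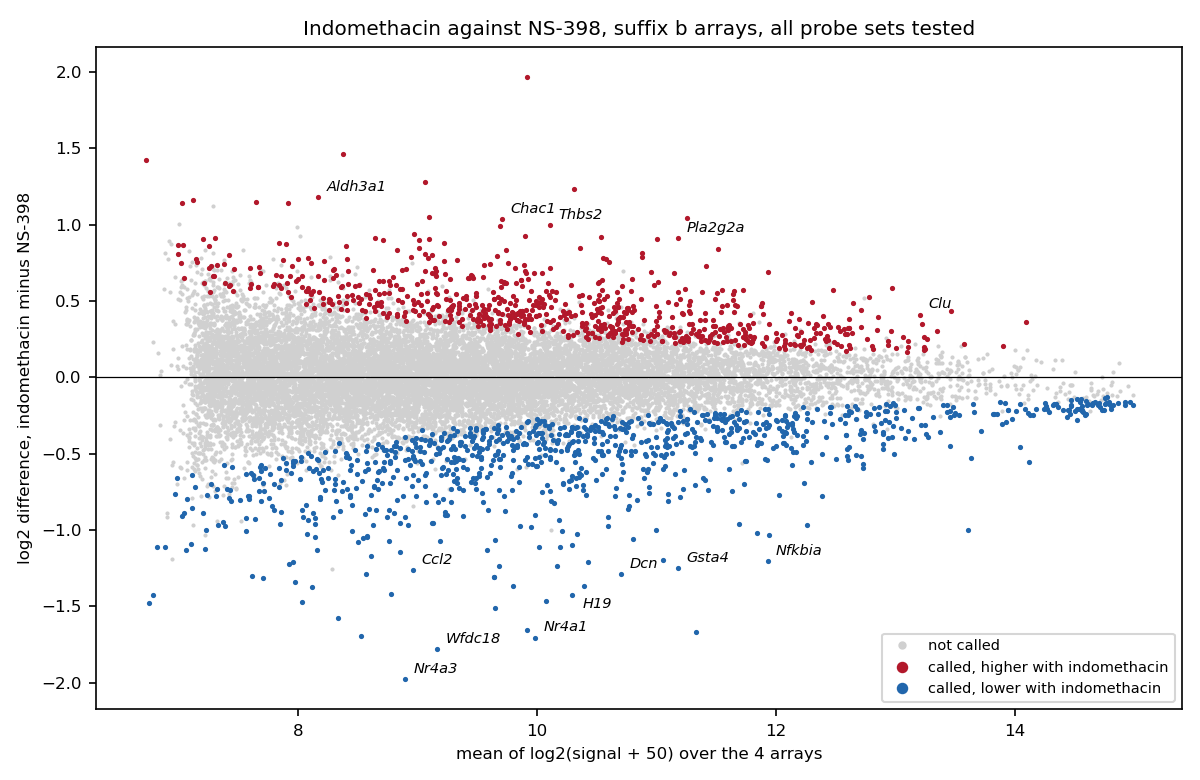
Difference between indomethacin and NS-398 (log2(signal + 50), vertical axis) against the mean log2 signal of the 4 arrays (horizontal axis) for the 16154 probe sets tested. Called probe sets are red where higher (733) and blue where lower (957) with indomethacin, and most of the differences beyond 1 lie below the zero line.

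The unfolded protein response is the programme by which cells raise chaperones and disposal factors when proteins misfold in the endoplasmic reticulum. Of 23 measured genes of this list, 11 were called higher with indomethacin and none lower, against 4.56% of all genes called higher, and 22 of 23 differences were above 0. The list's median difference was 0.21. Creld2, an endoplasmic reticulum protein induced by misfolding, had signals of 2579 and 2315 with indomethacin, 1318 and 1416 with NS-398 and 1330 and 1487 with DMSO. The NS-398 arrays thus read at the level of the DMSO arrays, and both indomethacin arrays stood above all of them. The difference was 0.82 ± 0.09 (limma adjusted p = 0.00021). Dnajc3, a co-chaperone that also restrains the kinase PERK, had 2531 and 2326 with indomethacin, 1316 and 1448 with NS-398 and 1718 and 1602 with DMSO, a difference of 0.79 ± 0.08.

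Other called members did the folding work itself. Hsp90b1, the endoplasmic reticulum form of the chaperone HSP90, had 13330 and 12790 with indomethacin and 9407 and 9906 with NS-398 (0.43 ± 0.05). The protein disulfide isomerase Pdia4 differed by 0.52 ± 0.06 and the chaperone Hyou1 by 0.54 ± 0.08. Herpud1, which serves the disposal of misfolded proteins, differed by 0.56 ± 0.06. The main luminal chaperone Hspa5 (BiP) had 16540 and 16160 with indomethacin, 14070 and 14320 with NS-398 and 13870 and 13880 with DMSO, a smaller difference of 0.20 ± 0.04 (adjusted p = 0.0084). Manf, Pdia6, Sdf2l1 and Sel1l were also called, with differences between 0.22 and 0.54. Against DMSO the list's median was 0.24 for indomethacin and 0.00038 for NS-398, and it was -0.00099 for NS-398 on the arrays without the suffix. The number called was 7 without the indomethacin 1b array and 7 without indomethacin 2b, and 6 without the intensity trend, and Hsp90b1, Pdia4, Dnajc3, Hyou1, Creld2 and Herpud1 were called without any single array.

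Many genes of this response carry an endoplasmic reticulum stress element, here CCAAT and CCACG 9 bases apart, on either strand. In RefSeq promoters of the rat assembly GRCr8, from 250 bases before to 50 after the gene start, it was found in 21 of 27457 genes (0.0765%). It was in 7 of the 19 tested list members with a promoter, 4 of them called: Creld2, Dnajc3, Hsp90b1 and Hspa5. The promoters of the called members with the largest differences are shown with the element in capitals, Creld2 at chr7:121789134-121789433 (plus strand, element from position -145) and Dnajc3 at chr15:102432417-102432716 (plus strand, from -133). A match is a description of the letters and not of a site in use.
Creld2: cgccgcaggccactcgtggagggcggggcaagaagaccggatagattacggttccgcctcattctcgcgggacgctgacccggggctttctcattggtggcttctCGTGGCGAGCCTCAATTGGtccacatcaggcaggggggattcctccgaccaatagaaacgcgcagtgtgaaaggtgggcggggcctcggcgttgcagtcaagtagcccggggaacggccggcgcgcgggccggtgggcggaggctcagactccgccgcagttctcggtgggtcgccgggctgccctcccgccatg
Dnajc3: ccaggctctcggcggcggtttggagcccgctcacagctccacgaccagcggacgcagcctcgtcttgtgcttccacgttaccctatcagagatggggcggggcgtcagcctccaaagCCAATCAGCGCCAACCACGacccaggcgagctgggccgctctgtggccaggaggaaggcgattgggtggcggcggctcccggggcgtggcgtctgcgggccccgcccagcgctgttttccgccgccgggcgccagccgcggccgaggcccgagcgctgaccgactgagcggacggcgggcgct

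The transcription factor ATF4 is made when the translation factor eIF2 is phosphorylated, and it raises genes of amino acid synthesis and uptake. The list also holds stress genes such as Ddit4 and Ppp1r15a. Of its 29 measured genes, 16 were called higher and 4 lower with indomethacin (69.0%, against 11.3% of all genes called). The list's median difference was 0.33. Against DMSO the median was 0.18 for indomethacin and -0.0026 for NS-398, but 0.33 for NS-398 on the arrays without the suffix. Chac1, which breaks down glutathione, had signals of 1116 and 1176 with indomethacin, 521 and 546 with NS-398 and 637 and 597 with DMSO. Indomethacin was above NS-398 and DMSO on both arrays, and the difference from NS-398 was 1.04 ± 0.10 (limma adjusted p = 0.00015). The neutral amino acid carrier Slc1a4 had 1856 and 1758 with indomethacin and 1140 and 1146 with NS-398 (0.64 ± 0.08). Its NS-398 values on the arrays without the suffix lay 1.11 above DMSO, against 0.042 on the arrays with it.

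For Aldh18a1 and Psph both NS-398 arrays lay below both DMSO arrays, and indomethacin minus DMSO was 0.058 and 0.16. Aldh18a1, the first enzyme of proline synthesis, had 2855 and 2693 with indomethacin, 1843 and 1882 with NS-398 and 2699 and 2625 with DMSO. Psph, which completes serine synthesis, had 2160 and 2178 with indomethacin, 1286 and 1460 with NS-398 and 1930 and 1942 with DMSO. Psat1 and Phgdh, the other enzymes of that path, differed by 0.35 ± 0.05 and 0.34 ± 0.07, and the cationic amino acid carrier Slc7a1 by 0.49 ± 0.08. Asns, asparagine synthetase, had 6137 and 6963 with indomethacin and 4863 and 5536 with NS-398 (0.33 ± 0.08), and Atf4 itself 10600 and 10740 against 8347 and 9586 (0.25 ± 0.06, adjusted p = 0.021). Trib3, a pseudokinase induced by ATF4, differed by 0.57 ± 0.15. The carrier Slc7a5 had 923 and 624 with indomethacin and 277 and 541 with NS-398 (0.88 ± 0.23, adjusted p = 0.035), and was not called without the indomethacin 1b array (adjusted p = 0.22) or NS-398 1b (0.19).

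The 4 members called lower were Ppp1r15a, Ddit4, Cebpb and Gdf15. Ppp1r15a, which returns eIF2 to its unphosphorylated form, had 2295 and 2524 with indomethacin, 4099 and 4036 with NS-398 and 2505 and 2658 with DMSO (-0.75 ± 0.07, limma adjusted p = 0.00012). Ddit4, an inhibitor of the growth kinase mTOR complex, had 3012 and 3272 with indomethacin, 4650 and 4496 with NS-398 and 2391 and 2521 with DMSO. The cytokine Gdf15, which passed the filter on low signals through the NS-398 arrays alone, differed by -0.81 ± 0.22 and the transcription factor Cebpb by -0.25 ± 0.06. The number of members called in either direction was 20, against 13 without the indomethacin 1b array, 13 without NS-398 1b, 12 without the intensity trend and 10 in a fit to all 14 arrays with a term for the label set. The ATF4 element TGATGNAA, on either strand, was in the promoter of 4.16% of the 27457 genes and of 6 of 27 tested members with a promoter, all 6 called higher: Chac1, Nupr1, Pck2, Slc1a4, Slc7a1 and Trib3. The Chac1 promoter (chr3:126795881-126796180, plus strand) is shown because Chac1 had the largest difference of the list, with the element, from position -167, in capitals.
Chac1: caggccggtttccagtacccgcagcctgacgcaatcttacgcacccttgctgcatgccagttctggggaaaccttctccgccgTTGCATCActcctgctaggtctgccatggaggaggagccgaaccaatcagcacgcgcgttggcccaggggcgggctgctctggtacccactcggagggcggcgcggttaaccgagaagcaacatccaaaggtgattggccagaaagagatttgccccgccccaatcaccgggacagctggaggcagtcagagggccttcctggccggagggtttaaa

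**Figure D2:**
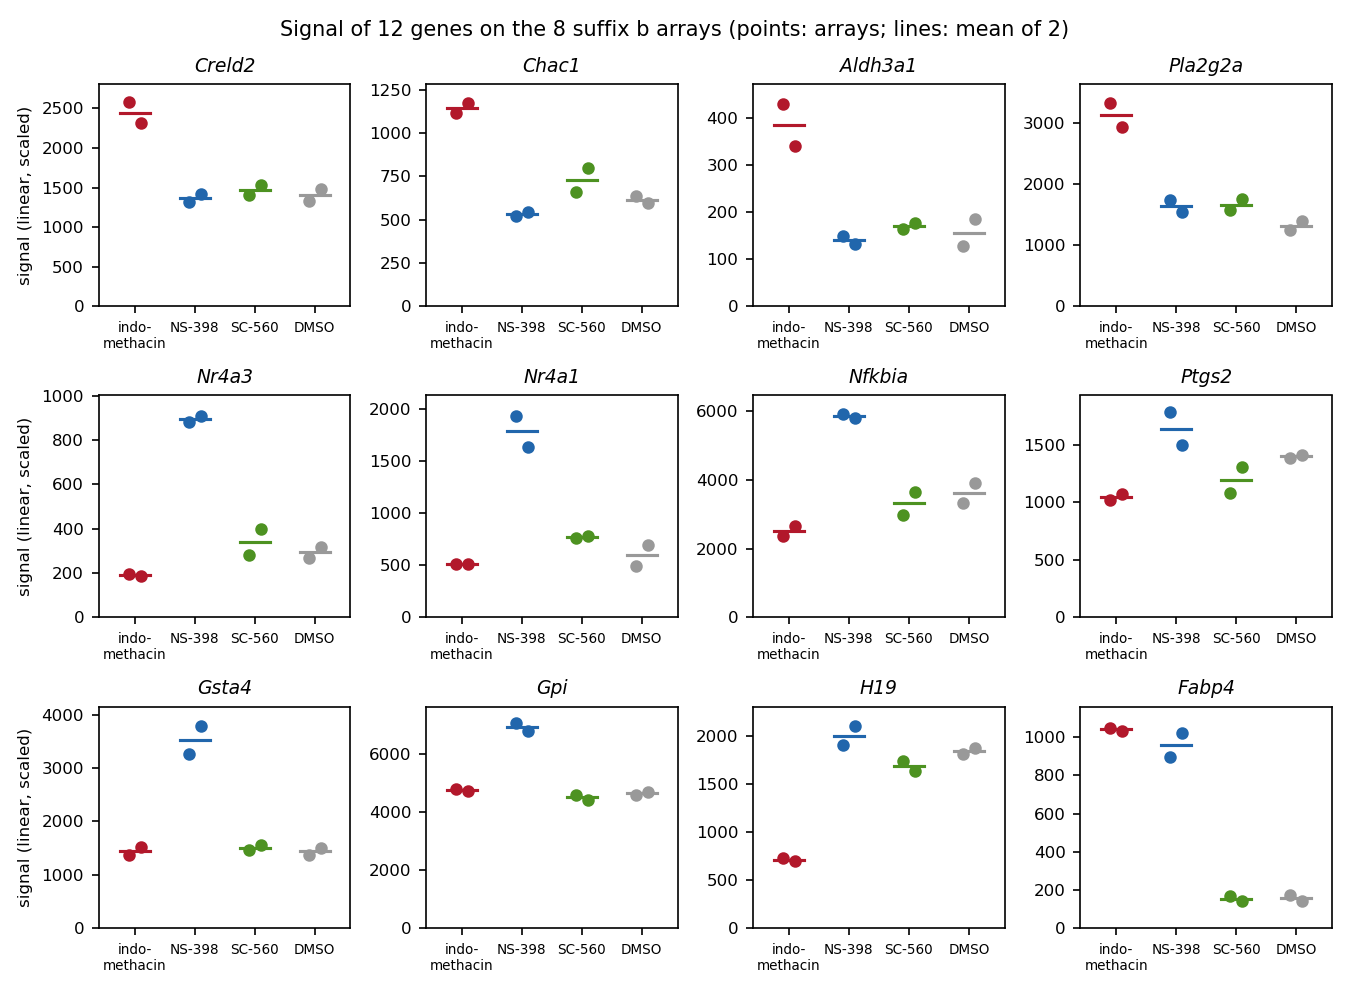
Linear signal (vertical axes, from 0) of 12 genes on each of the 8 arrays with the suffix b, by treatment (horizontal axes), points for arrays and lines for the mean of 2. Creld2, Chac1, Aldh3a1 and Pla2g2a were highest with indomethacin, Nr4a3, Nr4a1, Nfkbia, Gsta4 and Gpi were highest with NS-398, H19 was lowest with indomethacin, and Fabp4 was high with both.

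Immediate early genes respond within minutes to growth factors, calcium or stress. Of 24 measured, 15 were called lower with indomethacin than with NS-398 and 1 higher, against 6.74% of all genes called lower, and the median difference was -0.42. The 3 members of the NR4A family of orphan nuclear receptors were among the 12 largest falls. Nr4a3 had signals of 196 and 185 with indomethacin, 883 and 908 with NS-398 and 268 and 317 with DMSO. The NS-398 arrays stood alone, and the difference was -1.98 ± 0.15 (limma adjusted p = 4e-05), a mean signal 4.70 times as high with NS-398. Nr4a1 had 509 and 514 with indomethacin, 1938 and 1635 with NS-398 and 495 and 698 with DMSO (-1.71 ± 0.14), and with all 14 arrays it was not called (adjusted p = 0.063). Nr4a2 had 144 and 129 with indomethacin, against 487 and 526 with NS-398 (-1.58 ± 0.16).

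Subunits of the transcription factor AP-1 followed at a distance. Fos had 797 and 910 with indomethacin, 2399 and 1733 with NS-398 and 1029 and 1005 with DMSO (-1.21 ± 0.13). Jun differed by -0.58 ± 0.07, Junb by -0.39 ± 0.07, Fosl2 by -0.69 ± 0.16 and Fosb by -0.84 ± 0.21. Dusp1, a phosphatase that switches off MAP kinases, had 3521 and 3824 with indomethacin, 5166 and 4867 with NS-398 and 3465 and 3537 with DMSO. Egr1, a zinc finger factor, was the only member called higher, with 3551 and 3988 with indomethacin and 2809 and 2573 with NS-398 (0.48 ± 0.08), while its relative Egr2 differed by -0.51 ± 0.14.

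On the arrays without the suffix, NS-398 minus DMSO was -0.41 for Nr4a1, 0.16 for Nr4a3 and 0.39 for Nr4a2, against 1.52, 1.47 and 1.17 on the arrays with it, and whether the label sets differ in this was not tested here. The number of members called, 16, was 10 without the indomethacin 1b array, 7 without the intensity trend and 6 with all 14 arrays and a label set term. The cyclic AMP response element TGACGTCA, on either strand, was in 2.00% of all promoters and in 4 of 18 tested members with one, of which Dusp1 was called. Its shorter form TGACG, which the longer one contains, was in 23.0% of all promoters, in 11 of the 18 and in 6 of the 12 called. The Nr4a1 promoter (chr7:134259888-134260187, plus strand) is shown because it holds 4 copies of the shorter form, in capitals and read on the other strand.
Nr4a1: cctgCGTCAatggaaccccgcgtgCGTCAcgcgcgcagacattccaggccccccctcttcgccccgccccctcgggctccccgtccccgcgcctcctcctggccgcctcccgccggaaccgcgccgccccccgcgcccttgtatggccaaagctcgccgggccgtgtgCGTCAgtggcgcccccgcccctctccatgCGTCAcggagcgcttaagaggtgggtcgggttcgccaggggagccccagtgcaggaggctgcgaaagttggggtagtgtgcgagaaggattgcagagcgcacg

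NF-kB is the transcription factor of inflammation, and it induces chemokines, adhesion molecules and its own inhibitors. Of 21 measured genes, 10 were called lower with indomethacin and 2 higher (57.1%, against 11.3% of all genes called), and the median difference was -0.34. Here indomethacin was below DMSO and NS-398 above it: the list's median against DMSO was -0.38 for indomethacin and 0.25 for NS-398, and 0.30 for NS-398 on the arrays without the suffix. Nfkbia, the inhibitor that holds NF-kB in the cytoplasm, had signals of 2380 and 2665 with indomethacin, 5921 and 5815 with NS-398 and 3320 and 3925 with DMSO. The 3 groups did not overlap, and the difference between the drugs was -1.20 ± 0.10 (limma adjusted p = 6.9e-05). Tnfaip3 (A20), another feedback inhibitor, had 681 and 523 with indomethacin, 1981 and 1525 with NS-398 and 1133 and 1250 with DMSO (-1.47 ± 0.21).

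The chemokines split by what NS-398 did relative to DMSO. Ccl2, which attracts monocytes, had 263 and 281 with indomethacin, 718 and 726 with NS-398 and 577 and 495 with DMSO (-1.26 ± 0.12). Cxcl1, which attracts neutrophils, had 3149 and 3113 with indomethacin, 5862 and 4951 with NS-398 and 5626 and 6394 with DMSO, so that NS-398 and DMSO overlapped and indomethacin lay below both. The adhesion molecules Icam1 and Vcam1 differed by -0.60 ± 0.11 and -0.73 ± 0.12, and the chemokine Cxcl12 by -0.70 ± 0.09. Il6 passed the filter on low signals through the NS-398 arrays alone, with 15.8 and 13.1 with indomethacin and 149 and 111 with NS-398.

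The 2 members called higher were not of one kind. Il33, an alarmin cytokine kept in the nucleus, had 2528 and 2999 with indomethacin, 1467 and 1427 with NS-398 and 3491 and 3950 with DMSO, a difference of 0.91 ± 0.09 (limma adjusted p = 0.00019). On the arrays without the suffix, NS-398 minus DMSO for Il33 was 1.03 in place of -1.33, and with all 14 arrays Il33 was not called (adjusted p = 0.91). Cxcl10, an interferon-induced chemokine, had 293 and 232 with indomethacin and 134 and 104 with NS-398 (adjusted p = 0.022), and was not called without the indomethacin 1b array (0.14) or NS-398 2b (0.11). The kB motif GGGNNNNNCC was in 50.2% of all promoters and in 14 of 16 tested members with one. The Nfkbia promoter (chr6:78597023-78597322, minus strand) is shown because Nfkbia had the smallest adjusted p of the list, with its 2 matches, from positions -214 and -31, in capitals.
Nfkbia: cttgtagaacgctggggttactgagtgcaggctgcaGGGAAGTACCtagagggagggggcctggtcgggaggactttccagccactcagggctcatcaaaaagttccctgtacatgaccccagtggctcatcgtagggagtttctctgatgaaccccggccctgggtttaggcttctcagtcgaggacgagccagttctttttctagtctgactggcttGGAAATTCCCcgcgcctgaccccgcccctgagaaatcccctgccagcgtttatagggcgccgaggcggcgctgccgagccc

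Glycolysis turns glucose into pyruvate and lactate, and most of its enzymes are raised under low oxygen through HIF. Of 28 genes measured, 16 were called lower with indomethacin than with NS-398 and none higher (57.1%, against 11.3% of all genes called). The median difference was -0.33. Gpi, which makes fructose phosphate from glucose phosphate, had signals of 4795 and 4722 with indomethacin, 7054 and 6770 with NS-398 and 4595 and 4677 with DMSO. Indomethacin read close to DMSO and both NS-398 arrays stood above, a difference of -0.53 ± 0.05 (limma adjusted p = 0.00013). The later enzymes Aldoa (-0.45 ± 0.04), Tpi1 (-0.53 ± 0.05), Pgk1 (-0.24 ± 0.05) and Ldha (-0.35 ± 0.05) were called in the same direction, as were the phosphofructokinases Pfkl and Pfkp and the glucose carrier Slc2a1.

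Hk2, the hexokinase that starts the path, had 221 and 276 with indomethacin, 396 and 610 with NS-398 and 185 and 246 with DMSO (-0.87 ± 0.19). Ankrd37, a hypoxia-induced gene, had 233 and 293 with indomethacin, 602 and 679 with NS-398 and 192 and 229 with DMSO (-1.15 ± 0.16). Vegfa, the growth factor of blood vessels, had 1381 and 1574 with indomethacin, 2444 and 2481 with NS-398 and 1077 and 1082 with DMSO (-0.72 ± 0.08). The 3 groups did not overlap for Vegfa, with DMSO lowest. Car9, a carbonic anhydrase of the cell surface, differed by -0.57 ± 0.06, and Hif1a by -0.35 ± 0.06.

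Against DMSO the median of the glycolysis and hypoxia list was 0.17 for indomethacin and 0.50 for NS-398, and 0.12 for NS-398 on the arrays without the suffix, where Aldoa (-0.079) and Gpi (-0.0085) lay near 0 while Vegfa (0.89) and Ankrd37 (1.00) did not. The number called was 9 without the indomethacin 1b array, 10 without the intensity trend and 7 with all 14 arrays. The hypoxia element ACGTG was in 20.9% of all promoters, in 17 of 25 tested members with one and in 8 of the 14 called.

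NRF2 raises genes that detoxify reactive compounds. Of 24 genes measured, 8 were called lower with indomethacin and 1 higher (37.5%, against 11.3% of all genes called), and the median difference was -0.21. Both drugs were above DMSO, by medians of 0.23 for indomethacin and 0.45 for NS-398, and NS-398 was at 0.52 on the arrays without the suffix. Gsta4, a glutathione transferase for products of lipid peroxidation, had signals of 1379 and 1528 with indomethacin, 3268 and 3796 with NS-398 and 1377 and 1507 with DMSO. Indomethacin overlapped with DMSO, and the difference between the drugs was -1.25 ± 0.09 (limma adjusted p = 2.9e-05). NS-398 minus DMSO was 1.26 here and 1.23 on the arrays without the suffix.

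Hmox1, which degrades heme, had 389 and 413 with indomethacin, 653 and 826 with NS-398 and 251 and 285 with DMSO (-0.80 ± 0.14). The transferases Gstm1 (-0.52 ± 0.07) and Gsta1 (-0.51 ± 0.08) were also lower, and so were Tkt and Taldo1 of the pentose phosphate path. The single member called higher was Aldh3a1, an aldehyde dehydrogenase that the aryl hydrocarbon receptor also controls. It had 430 and 341 with indomethacin, 149 and 133 with NS-398 and 128 and 186 with DMSO, the largest rise among the genes named by rule (1.18 ± 0.17, limma adjusted p = 0.0015). Cyp1b1, another target of that receptor, was called in the other direction, by -0.29 ± 0.06, and lost its call without indomethacin 2b (adjusted p = 0.12), NS-398 1b (0.057) or NS-398 2b (0.06).

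In the prostaglandin pathway itself, 10 genes were measured, 1 was called higher and 1 lower (20.0%, against 11.3% of all genes called). Pla2g2a, a secreted phospholipase that frees fatty acids from membranes, had signals of 3330 and 2944 with indomethacin, 1740 and 1545 with NS-398 and 1252 and 1392 with DMSO, a difference of 0.91 ± 0.09 (limma adjusted p = 0.00016). On the arrays without the suffix it read 12.3 and 11.8 with NS-398 and 65.6 and 13.0 with DMSO, all below the filter of 100. Ptgs2, which encodes cyclooxygenase-2, had 1025 and 1072 with indomethacin, 1784 and 1502 with NS-398 and 1386 and 1416 with DMSO. The 3 groups did not overlap, and the difference was -0.62 ± 0.10 (adjusted p = 0.0035).

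Ptgs1, which encodes cyclooxygenase-1, read 39.9 and 38.8 with indomethacin and 31.6 and 51.7 with NS-398, below the filter of 100, and was not tested. The cytosolic phospholipase Pla2g4a had a difference of -0.19 ± 0.12 and the prostaglandin E synthase Ptges -0.19 ± 0.22, neither called. The receptor Ptger4 read 513 and 680 with indomethacin, 616 and 748 with NS-398 and 156 and 234 with DMSO, so that both drugs were above DMSO and overlapped each other (-0.19 ± 0.17, adjusted p = 0.56).

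Polyamines are small cations that intestinal crypt cells need to migrate and divide. Of 11 measured genes of their metabolism, 5 were called lower with indomethacin and none higher (45.5%, against 11.3% of all genes called). The list's median was -0.24. Sat1, the enzyme that marks polyamines for export or breakdown, had signals of 845 and 734 with indomethacin, 1593 and 1668 with NS-398 and 849 and 779 with DMSO (-1.004 ± 0.12, limma adjusted p = 0.0004). NS-398 minus DMSO was 0.96 here and 1.24 on the arrays without the suffix. Paox, which oxidises the products of Sat1, differed by -0.67 ± 0.14. Arg1, which makes ornithine from arginine, had 762 and 839 with indomethacin, 1473 and 1432 with NS-398 and 1682 and 1317 with DMSO, so here indomethacin lay below DMSO while NS-398 overlapped it (-0.82 ± 0.11). Amd1, which supplies the aminopropyl groups, differed by -0.47 ± 0.10 and Oat by -0.37 ± 0.06.

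Matrix genes went both ways. Of 45 measured, 11 were called lower and 3 higher with indomethacin (31.1%, against 11.3% of all genes called), and the median was -0.066. Dcn, the collagen-binding proteoglycan decorin, had signals of 999.5 and 1035 with indomethacin, 2559 and 2554 with NS-398 and 1986 and 1355 with DMSO (-1.29 ± 0.14, limma adjusted p = 0.00021). Vcan, the large proteoglycan versican, had 1524 and 1160 with indomethacin and 2410 and 2313 with NS-398 (-0.80 ± 0.12), and the glycoprotein Efemp1 differed by -0.47 ± 0.07. Thbs2, a matricellular protein that limits vessel growth, was higher, with 1458 and 1565 with indomethacin, 685 and 782 with NS-398 and 1681 and 1919 with DMSO. Indomethacin was thus nearer to DMSO, and the difference was 1.00 ± 0.09 (adjusted p = 0.00012). The basement membrane protein Nid2 had 4905 and 4922 with indomethacin, 3016 and 3025 with NS-398 and 3098 and 3484 with DMSO (0.69 ± 0.07). The number of matrix genes called, 14, was 7 without the indomethacin 1b array, 9 without NS-398 1b and 8 without the intensity trend, and with all 14 arrays the list's median was 5.02e-05.

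Among matrix proteases and their inhibitors, 6 of 18 were called lower and 1 higher (38.9%, against 11.3% of all genes called). Adamts1, a protease of proteoglycans, had signals of 1229 and 1267 with indomethacin, 2293 and 2271 with NS-398 and 1135 and 1055 with DMSO (-0.85 ± 0.10). Serpine2, an inhibitor of serine proteases, differed by -0.97 ± 0.16 and the cysteine protease inhibitor Cst3 by -0.51 ± 0.05. The metalloprotease inhibitor Timp1 was the one called higher, with 8551 and 8385 with indomethacin against 6676 and 6158 with NS-398 (0.40 ± 0.05), while Timp3 was called lower (-0.45 ± 0.11).

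Integrins bind cells to this matrix. Of 25 genes of integrins and focal adhesion, 5 were called higher and 4 lower (36.0%, against 11.3% of all genes called). The list's median was -0.0047. Itga6, the laminin receptor subunit of hemidesmosomes, had signals of 2899 and 2905 with indomethacin, 2068 and 2002 with NS-398 and 2352 and 2508 with DMSO (0.50 ± 0.07), and its partner Itgb4 differed by 0.39 ± 0.11. Itgb3, part of the vitronectin receptor, had 204 and 228 with indomethacin, 485 and 511 with NS-398 and 274 and 244 with DMSO (-1.04 ± 0.17), and the collagen receptor subunit Itga1 differed by -0.65 ± 0.12. The count of 9 was 4 without the indomethacin 1b array, 4 without indomethacin 2b and 5 without NS-398 2b. Of 39 genes of the actin cytoskeleton and motility, 2 were called higher and 1 lower (7.69%), against 11.3% of all genes. Raph1 (lamellipodin), which brings actin polymerisation to the leading edge, had 4009 and 3721 with indomethacin, 2169 and 2102 with NS-398 and 1929 and 1597 with DMSO (0.84 ± 0.09). The non-muscle myosin heavy chain Myh10 had 2030 and 1777 with indomethacin, 2785 and 3057 with NS-398 and 2294 and 2610 with DMSO (-0.61 ± 0.09). Afap1l2, an actin-filament-associated adaptor, had 1302 and 1362 with indomethacin, 1061 and 928 with NS-398 and 1827 and 1578 with DMSO (0.41 ± 0.10, adjusted p = 0.021), and was not called without indomethacin 1b (0.072), indomethacin 2b (0.12) or NS-398 2b (0.12).

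Mitotic genes drive the separation of chromosomes and cells. Of 33 measured, 9 were called higher and none lower (27.3%, against 11.3% of all genes called). The median was 0.14, and 32 of 33 differences were above 0. Ccnb1, the mitotic cyclin, had signals of 3876 and 3841 with indomethacin, 2380 and 2828 with NS-398 and 3218 and 3589 with DMSO (0.56 ± 0.08, limma adjusted p = 0.0015). Kif20a, a kinesin of cell division, had 4013 and 4018 with indomethacin, 3056 and 2969 with NS-398 and 4075 and 4129 with DMSO, and the cyclin Ccna2 differed by 0.42 ± 0.07. The list's median against DMSO was -0.030 for indomethacin and -0.23 for NS-398, and 0.081 for NS-398 on the arrays without the suffix. The count of 9 was 4 without the indomethacin 1b array, 5 without indomethacin 2b, 5 without NS-398 1b, 5 without NS-398 2b and 2 with all 14 arrays. Of 34 DNA replication genes, 4 were called higher and 1 lower (14.7%, near the 11.3% of all genes called). Only 1 was called without the intensity trend, and 1 with all 14 arrays.

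Genes of sterol and fatty acid synthesis gave 4 of 28 called higher (14.3%, near the 11.3% of all genes called), with a median of 0.10. Fdps, which makes farnesyl diphosphate, had signals of 5950 and 5923 with indomethacin, 4477 and 3951 with NS-398 and 4864 and 4929 with DMSO (0.49 ± 0.07). The count was 1 without the indomethacin 1b array, 1 without NS-398 2b and 7 without NS-398 1b. Lysosomal genes gave 8 of 20 called lower and none higher (40.0%, against 11.3% of all genes called), with a median of -0.20. Npc2, which carries cholesterol out of lysosomes, had 5531 and 5552 with indomethacin, 7809 and 8104 with NS-398 and 5367 and 5368 with DMSO (-0.52 ± 0.06), and the sialidase Neu1 differed by -0.90 ± 0.16. With all 14 arrays none of the lysosomal genes was called, and NS-398 minus DMSO had a list median of 0.23 here and -0.090 on the arrays without the suffix.

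Ribosomal protein genes gave 17 of 33 called lower and none higher (51.5%, against 11.3% of all genes called). The called ones differed by -0.24 to -0.16. Rpl19 had signals of 22910 and 22100 with indomethacin and 26740 and 26530 with NS-398. After quantile normalization the list's median was -0.027 in place of -0.16 and 1 gene was called, and without the intensity trend none was. Genes with a mean signal of 10000 or more, the 17 called ribosomal ones among them, had a median difference of -0.073 and 52 of 183 called lower, against 4 called higher. The count of 17 was 3 without the indomethacin 1b array, 8 without indomethacin 2b, 10 without NS-398 1b and 8 without NS-398 2b.

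**Figure D3:**
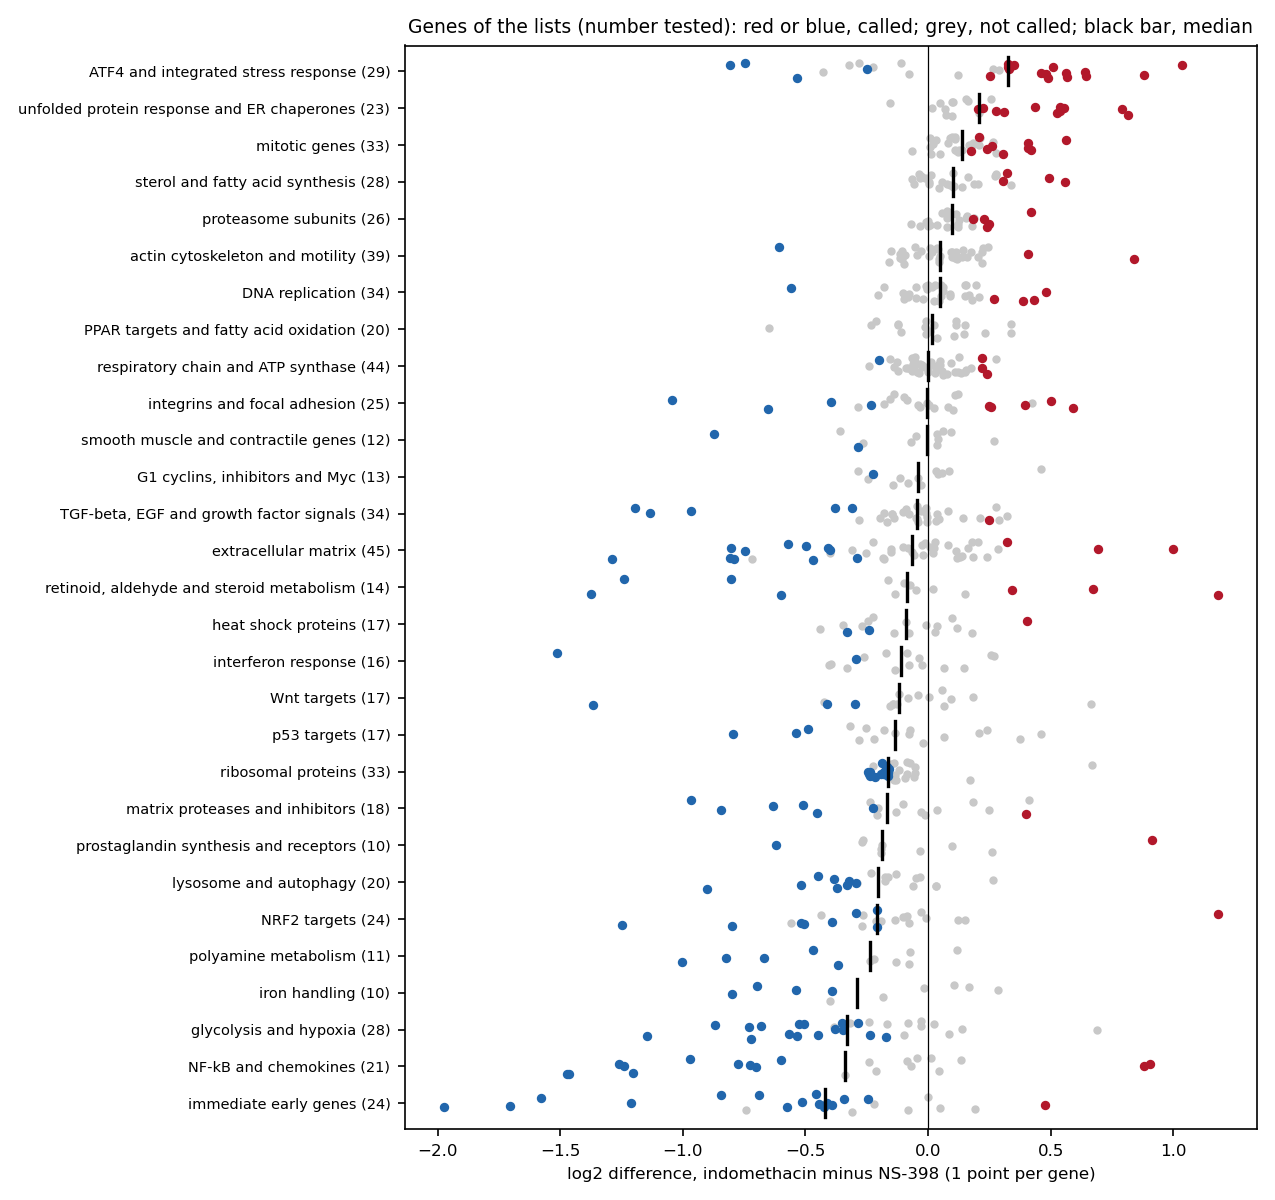
Difference between indomethacin and NS-398 (log2(signal + 50), horizontal axis) for each measured gene of the lists with 10 or more genes, 1 row per list and 1 point per gene, red or blue where called, with the list's median as a black bar. Medians run from 0.33 for the ATF4 list at the top to -0.42 for immediate early genes at the bottom, and no gene of the unfolded protein response or mitotic lists is called lower.

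Retinoid, aldehyde and steroid metabolism held 4 genes called lower and 3 higher of 14 (50.0%, against 11.3% of all genes called). Hsd11b1, which regenerates active glucocorticoid, had signals of 644 and 755 with indomethacin, 1733 and 1693 with NS-398 and 376 and 476 with DMSO (-1.24 ± 0.13, limma adjusted p = 0.00019). Both drugs were above DMSO, and NS-398 minus DMSO was 1.10 on the arrays without the suffix, against 1.90 here. Rbp4, a retinol carrier, had 829 and 829 with indomethacin, 531 and 473 with NS-398 and 616 and 675 with DMSO (0.67 ± 0.10). The alcohol dehydrogenase Adh1c had 107 and 139 with indomethacin, 445 and 353 with NS-398 and 73.9 and 27.3 with DMSO. Its adjusted p was 0.024, and 0.12 without indomethacin 1b, 0.064 without indomethacin 2b, 0.12 without NS-398 1b and 0.063 without NS-398 2b. The list's count of 7 was 4 without indomethacin 1b, 3 without indomethacin 2b and 3 without NS-398 1b.

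Several of the largest differences lay outside these groups. H19, a long noncoding RNA of an imprinted locus, had the smallest adjusted p of the 104 genes named by rule (4.9e-06 in limma), with signals of 727 and 700 with indomethacin, 1905 and 2109 with NS-398 and 1815 and 1883 with DMSO. NS-398 read near DMSO and both indomethacin arrays far below, and the difference was -1.43 ± 0.08. Inhba, a subunit of activin, had 1403 and 1302 with indomethacin, 3459 and 2886 with NS-398 and 1327 and 1271 with DMSO (-1.20 ± 0.09). Wnt4, a secreted Wnt ligand, had 474 and 534 with indomethacin, 1380 and 1375 with NS-398 and 800 and 633 with DMSO (-1.37 ± 0.13).

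Wfdc18 had signals of 234 and 288 with indomethacin, 1134 and 905 with NS-398 and 385 and 300 with DMSO (-1.78 ± 0.16). Cxcl13, a chemokine for B cells, had 492 and 495 with indomethacin, 1864 and 1478 with NS-398 and 152 and 227 with DMSO (-1.65 ± 0.16), so both drugs were above DMSO. With all 14 arrays Cxcl13 was not called (-0.66, adjusted p = 0.56). Mx1, an interferon-induced GTPase, had 469 and 386 with indomethacin, 1509 and 1129 with NS-398 and 384 and 686 with DMSO (-1.51 ± 0.21), with indomethacin overlapping DMSO. Bdh2, a short-chain dehydrogenase (-1.42 ± 0.12), and Ugt2b35, a glucuronosyltransferase (-1.47 ± 0.17), complete the 12 largest falls.

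On the other side, Aass, which degrades lysine, had signals of 250 and 247 with indomethacin, 96.1 and 74.0 with NS-398 and 195 and 167 with DMSO (1.15 ± 0.15), and it passed the filter on low signals through the indomethacin arrays alone. NS-398 was lowest there, by -0.78 relative to DMSO, against 0.099 on the arrays without the suffix. On the arrays without it Aass read 68 and 62 with NS-398 and 74 and 43 with DMSO, all below the filter of 100. With all 14 arrays Aass was not called (adjusted p = 0.12). Vangl1, a planar cell polarity protein, had 1781 and 2207 with indomethacin, 892 and 1181 with NS-398 and 1329 and 1254 with DMSO (0.92 ± 0.13). Mepe, a matrix phosphoglycoprotein known from bone, had 467 and 531 with indomethacin, 252 and 231 with NS-398 and 218 and 244 with DMSO (0.91 ± 0.13), and the thioesterase Them5 differed by 0.91 ± 0.16. Camk2b, a calcium-dependent kinase, differed by 0.87 ± 0.19 and was not called without indomethacin 1b (adjusted p = 0.081), indomethacin 2b (0.062) or NS-398 2b (0.087).

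The arrays without the suffix held no indomethacin, so a fit that adds them is no second test of the comparison. For Rbp4, Tesc and Camk2b, NS-398 and DMSO signals there were all below the filter of 100. Their lost calls cannot decide whether the difference repeats, because those signals are dim. DMSO levels also differed between the sets for some genes, such as Wfdc18 (385 and 300 with the suffix, 5504 and 5196 without it). Further genes named by rule were not called in the fit to all 14 arrays with a label set term. Among them were Slc7a5 (adjusted p = 0.10), Aldoa (0.47), Gpi (0.18), Cst3 (0.19), Kif20a (0.15), Npc2 (0.11), Rbp4 (0.17), Adh1c (0.18), Cyp1b1 (0.86), Camk2b (0.056), Lbp (0.42), Tesc (0.77) and Lgals4 (0.58).

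**Figure D4:**
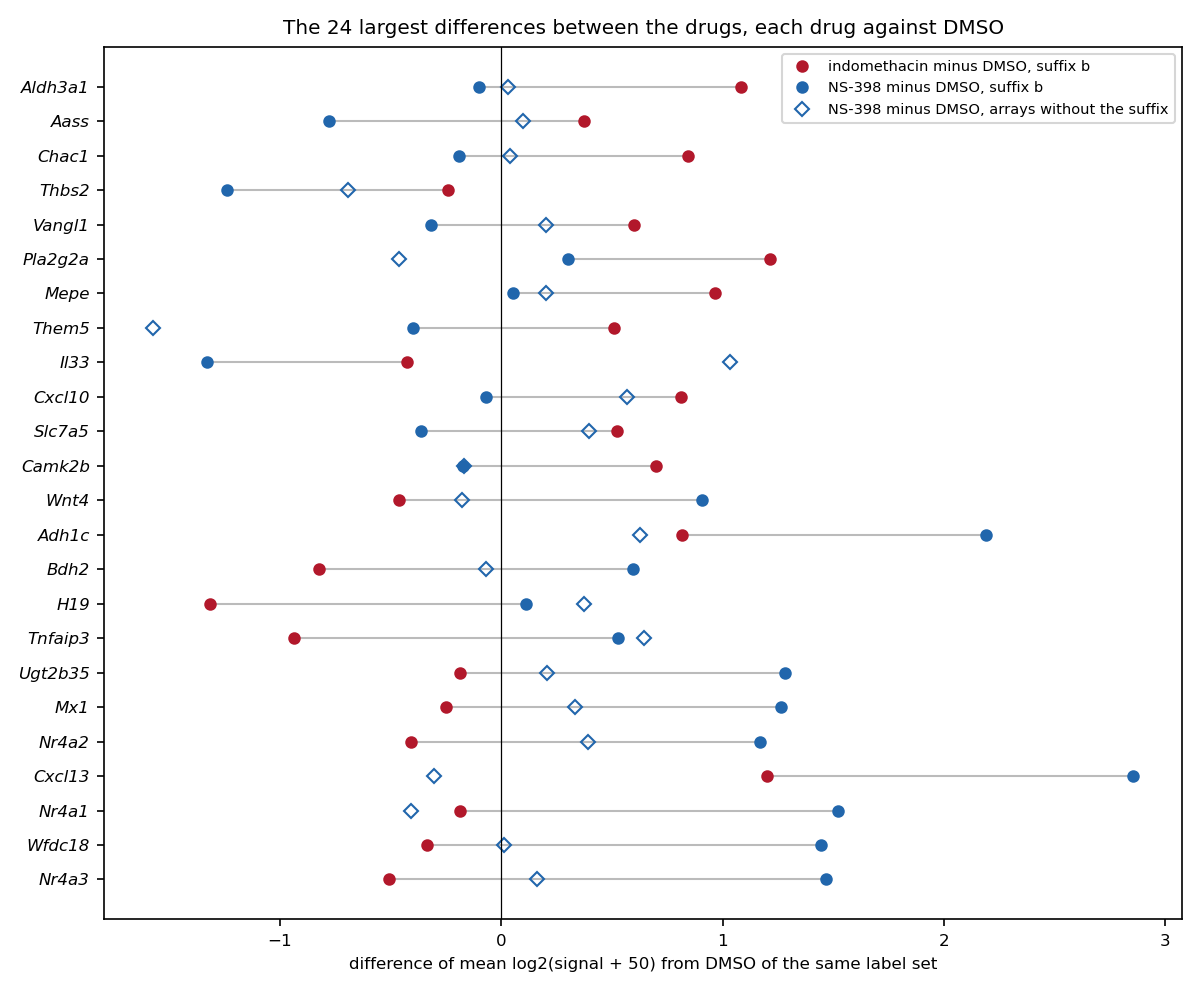
Difference from DMSO of the same label set (log2(signal + 50), horizontal axis) for the 12 largest rises and 12 largest falls between the drugs, filled points for the arrays with the suffix b (red indomethacin, blue NS-398) and open diamonds for NS-398 on the arrays without the suffix. H19 and Tnfaip3 were low with indomethacin, the NR4A genes were high with NS-398, and the open diamonds lie far from the blue points for Il33, Nr4a1 and Cxcl13.

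The drugs did not separate everywhere. Of the genes whose mean over the 2 drugs lay at least 1 from DMSO on the log2 scale, the 5 with the narrowest interval were Clu, Scara5, Lbp, Tesc and Dock11, and only Dock11 was not called. Dock11, an activator of the GTPase Cdc42, had signals of 544 and 445 with indomethacin, 600 and 513 with NS-398 and 1267 and 1219 with DMSO. Its difference was -0.16 ± 0.11 (95% interval -0.40 to 0.084, limma adjusted p = 0.41), against -1.26 for indomethacin and -1.10 for NS-398 relative to DMSO. Fabp4, a fatty acid carrier and PPAR target, had 1049 and 1031 with indomethacin, 898 and 1021 with NS-398 and 176 and 143 with DMSO, a difference of 0.11 ± 0.12 (95% interval -0.16 to 0.38, adjusted p = 0.63).

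The other 4 rose with both drugs relative to DMSO, to unequal levels. Clu, the secreted chaperone clusterin, had signals of 11060 and 10620 with indomethacin, 8181 and 8093 with NS-398 and 3652 and 4076 with DMSO (0.41 ± 0.07). Lbp, which binds bacterial lipopolysaccharide, had 1074 and 1076 with indomethacin, 2120 and 2018 with NS-398 and 397 and 445 with DMSO (-0.91 ± 0.09). Scara5, a ferritin receptor, had 891 and 884 with indomethacin, 1526 and 1413 with NS-398 and 519.5 and 513 with DMSO (-0.70 ± 0.09). Tesc, a calcium-binding protein, differed by -0.52 ± 0.11 and was not called without indomethacin 1b (adjusted p = 0.073) or NS-398 1b (0.063).

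None of 20 PPAR targets and fatty acid oxidation genes was called in limma, and none of 7 calpain genes, against 11.3% of all genes called. At an unadjusted p under 0.05 were 7 of the 20 and 2 of the 7, against 2557 of all 9363 genes. Lists this small can hold no call at that share, so these counts do not show that the drugs acted alike. Calpains are calcium-activated proteases that release focal adhesions in moving cells. Capn2, the catalytic subunit of m-calpain, had signals of 3509 and 3148 with indomethacin, 2929 and 2884 with NS-398 and 3457 and 3130 with DMSO (0.19 ± 0.07, 95% interval 0.036 to 0.34, adjusted p = 0.11). With all 14 arrays it was called (adjusted p = 0.0498). Capn1, the subunit of µ-calpain, had 509 and 608 with indomethacin, 594 and 684 with NS-398 and 574 and 589 with DMSO (-0.18 ± 0.11), and the inhibitor calpastatin, Cast, 3578 and 3755 against 4286 and 4035 with NS-398 (-0.18 ± 0.06, adjusted p = 0.091). The median width of the 95% interval over all genes was 0.46. Among called genes the absolute difference had a median of 0.42 and was at least 0.16. With 2 arrays a drug, small differences can go uncalled.

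Marker genes checked the cell line. Of 24 epithelial markers, 12 reached a signal of 100 on at least 2 of the 8 arrays, and Krt18, Epcam and Ocln were below it on all 8. The summed signal of the list was 32390 to 33210 with indomethacin, 30110 to 31780 with NS-398 and 29040 to 29810 with DMSO. Krt8, a keratin of simple epithelia, had 6879 and 6893 with indomethacin, 4483 and 4769 with NS-398 and 5881 and 5909 with DMSO (0.57 ± 0.05), and the galectin Lgals4 differed by 0.63 ± 0.09. Of the 10 epithelial markers tested, these 2 were called higher and Krt20 lower (30.0%, against 11.3% of all genes called). The list's median difference was -0.026. Krt20, a keratin of mature enterocytes, had 130 and 97.4 with indomethacin, 186 and 229 with NS-398 and 101 and 93.3 with DMSO (-0.66 ± 0.18, adjusted p = 0.039). It was not called without indomethacin 1b (0.065), indomethacin 2b (0.21), NS-398 1b (0.065) or NS-398 2b (0.19). Fibroblast markers summed to 88310 to 92760 with indomethacin, 94170 to 96210 with NS-398 and 86660 to 90520 with DMSO, with 6 of 15 reaching 100, and Dcn and Cdh11 were called lower. The median difference of the 6 was -0.10, and 0.037 after quantile normalization. Of the 15 immune markers on the array 2 reached 100, Cd14 and Cd68, and neither was called. Cd14 read 3775 and 4088 with indomethacin, 3893 and 3608 with NS-398 and 3130 and 3380 with DMSO. Cd68 lay near the filter, with 111 and 54.8 with indomethacin and 83.8 and 126 with NS-398. Ptprc was below 100 on all 8 arrays. The part of these marker shifts in the differences of matrix genes was not tested.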

How the data were processed

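The series holds 14 one-colour Affymetrix arrays of rat IEC-6 RNA, which was amplified by in vitro transcription in 2 rounds, per the labels. The deposited values are linear signal intensities, scaled by the authors to a target signal of 500 per the labels, and the trimmed means of the arrays were checked and lay between 500.163 and 500.173. The probe summary software is not given in the sources used here.

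Names came from the platform annotation (20832 of 31099 with 1 symbol, 436 with several, 9831 not listed), with 20764 symbols updated through RefSeq's table of the assembly GRCr8 and 68 kept. The 57 controls were left out, and 3204 tested probe sets have no name here. A gene was read from 1 probe set, the one of highest mean over the 4 arrays. Promoter sequences are RefSeq's, with GRCr8 coordinates.

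Signals were fitted as log2(signal + 50) with limma 3.58.1 (R 4.3.3), with 1 mean per group over the 8 arrays with the suffix b, empirical Bayes moderation with an intensity trend and Benjamini-Hochberg adjustment over the 16154 probe sets. SC-560 and DMSO arrays add to the estimate of the spread. Values against DMSO share its arrays and the drug arrays with the comparison and are no separate evidence. The number of arrays limits the precision. On simulated arrays, 27% of changes of 0.5 and 70% of changes of 1 on the log2 scale were recovered (100 each among 16154), with 2 false calls of 99. Far fewer probe sets were changed there than the 1690 called in the data. The simulated noise was also independent between arrays. These rates therefore need not hold for the comparison, and they do not cover pooled or technical replicates.

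The comparison, the 32 gene lists and 5 marker lists (973 genes, 711 tested) and the rule for named genes were chosen with earlier results of these data known. The rule names the 12 genes furthest up and the 12 furthest down, if called, non-overlapping and averaging a signal of 200 or more with the drug that read higher, up to 2 called members per list and direction with the smallest adjusted p, Ptgs1, Ptgs2, Fabp4, the calpain genes, and the 5 genes with the narrowest interval among those at least 1 from DMSO. Further list members named as examples, and the promoters shown, were chosen after their values and motif matches were seen.

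Numbers 1b and 2b were not used as pairs in the main fit. Deviations of same-numbered arrays from their group means correlated between -0.084 and 0.083, which does not settle whether they were run together. Alternatives were the pseudocount, the filter, quantile normalization, no trend, each array left out, a replicate block, other sets of arrays and a second probe set.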

Additional observations from a re-analysis of the deposited data

Results flagged for a closer look

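For 15 of the named genes, both NS-398 arrays lay on one side of both DMSO arrays in the set with the suffix b and on the other side in the set without it, so NS-398 stands on the other side of DMSO there. The difference between the sets was not tested. For Cxcl13 and Pla2g2a all 4 signals without the suffix were below the filter of 100 (29.5 and 10.7 with NS-398 and 36.4 and 34.9 with DMSO for Cxcl13, 12.3 and 11.8 with NS-398 and 65.6 and 13.0 with DMSO for Pla2g2a), so their side there is a reading of dim signals. NS-398 minus DMSO, on the log2 scale, is given first for the arrays with the suffix and then for those without it.

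Genes above DMSO with the suffix were Cxcl13 (2.85 and -0.30), Nr4a1 (1.52 and -0.41), Wnt4 (0.91 and -0.18), Aldoa (0.66 and -0.079), Bdh2 (0.59 and -0.069), the calpain inhibitor Cast (0.43 and -0.17), Pla2g2a (0.30 and -0.46), Ctsa (0.28 and -0.33), Cst3 (0.28 and -0.33), Cyp1b1 (0.20 and -0.51) and Capn1 (0.12 and -0.28).

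Genes below DMSO with the suffix were Il33 (-1.33 and 1.03), Lgals4 (-0.45 and 0.62), Vangl1 (-0.32 and 0.20) and Itga6 (-0.25 and 0.10).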

How the results depend on the processing

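The count of 1690 called probe sets was 813 with no filter on low signals, 784 without the intensity trend and 990 in the fit to all 14 arrays with a term for the label set, and between 707 and 1538 when 1 array was left out. It was 1669 and 1728 with a pseudocount of 16 and 200, 1746 with a filter at 200, 1185 with only the 4 indomethacin and NS-398 arrays and 1580 after quantile normalization. With the replicate number as a block (replicate block) it was 1582. Same-numbered arrays showed little shared deviation. Of the 104 named genes 95 were called, 71 of them also without any 1 array and 48 under every alternative other than the second probe set. A second probe set was tested for 18 of the called genes, called in the same direction for 11 and opposite in sign for 1, Cdh11 (0.71, adjusted p = 0.054), for which the cause was not tested. In the 14-array fit NS-398 arrays of both label sets enter, and 815 of the 1690 probe sets were called there. With 2 arrays a drug the median interval of a probe set was 0.52 wide on the log2 scale. The comparison has 1 dose and 1 time, so a difference in potency between the drugs at 100 µM and a difference in kind cannot be told apart.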

Other observations

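Proteasome subunits, which build the main protease of the cytosol, gave 5 of 26 called higher with indomethacin and none lower (19.2%, against 11.3% of all genes called), with a median of 0.099. Psmd14, a deubiquitinase of the proteasome lid, had signals of 5000 and 5258 with indomethacin, 3997 and 3657 with NS-398 and 5507 and 4994 with DMSO (0.42 ± 0.07, limma adjusted p = 0.0037). The count of 5 was 2 without indomethacin 1b, 1 without indomethacin 2b and 1 without NS-398 2b. Of 44 genes of the respiratory chain and ATP synthase, 3 were called higher and 1 lower (9.09%, below the 11.3% of all genes), and none without indomethacin 1b, none without indomethacin 2b, 2 without NS-398 1b and 1 without NS-398 2b. Iron genes gave 4 of 10 called lower and none higher (40.0%, against 11.3% of all genes called). They were Hmox1 and Scara5, the plasma ferroxidase Cp (880 and 852 with indomethacin, 1293 and 1265 with NS-398, 710 and 835 with DMSO) and the transferrin receptor Tfrc (2329 and 2071 with indomethacin, 2646 and 3179 with NS-398, 2719 and 2550 with DMSO). Without indomethacin 2b, 2 of them were called.

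Of 17 p53 targets, 3 were called lower with indomethacin and none higher (17.65%, against 11.3% of all genes called): Gadd45a, Gadd45b and Perp. Gadd45a had 3945 and 3741 with indomethacin, 4931 and 5929 with NS-398 and 3302 and 3078 with DMSO (-0.49 ± 0.08), and Gadd45b differed by -0.54 ± 0.06. Both are stress-induced growth arrest genes. Of 34 genes of TGF-beta, EGF and growth factor signals, 5 were called lower and 1 higher (17.65%, against 11.3% of all genes called). Igf2, among those called lower, was dim, with a mean log2 signal of 7.06. It differed by -1.13 ± 0.30 (limma adjusted p = 0.034), and its mean with indomethacin lay below the filter on low signals. The Igf2 call, and its part in the share of this list, therefore rest on dim signals. The 1 called higher was the latent TGF-beta binding protein gene Ltbp1 (0.25 ± 0.07, limma adjusted p = 0.034). That count of 6 was 3 without indomethacin 1b, 3 without indomethacin 2b, 2 without NS-398 1b and 2 without NS-398 2b. The growth factor Fgf7, which acts on epithelia, had 170 and 311 with indomethacin, 522 and 481 with NS-398 and 181 and 246 with DMSO (-0.97 ± 0.21). The small heat shock protein Cryab went the other way, with 6015 and 6277 with indomethacin, 4481 and 4782 with NS-398 and 4641 and 4546 with DMSO (0.40 ± 0.05), while Hsp90ab1 differed by -0.24 ± 0.04.

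The largest single rise of the comparison was in 1 of 4 Larp1 probe sets (1.97 ± 0.51, adjusted p = 0.032), and 1 of 6 for Pik3ca rose by 1.46 ± 0.14, while no other probe set of either gene was called. These were singled out after their values were seen. The trefoil peptide gene Tff2 had 192 and 110 with indomethacin, 421 and 301 with NS-398 and 6.98 and 22.2 with DMSO, and its difference of -1.05 ± 0.27 (adjusted p = 0.031) was not called without indomethacin 2b (0.20), NS-398 1b (0.17) or NS-398 2b (0.053).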
